A study of Mus musculus with 21 samples.

Results

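The miRNAs described here are the mature strands of miR-143, miR-145a and miR-126a in the female mouse pituitary, taken as every name that begins, without its species prefix, with miR-143-, miR-145a, or miR-126 followed by a hyphen or an a. In the virgin cohort 7 of 1909 names met the rule, namely miR-143-3p, miR-143-5p, miR-145a-5p, miR-145a-3p, miR-126a-5p and the forms miR-126a-3p.1 and miR-126a-3p.2, which differ at the 5′ end. In the breeding-trial cohort 6 of 1841 names met it, with miR-126a-3p as a single name. Small-RNA-seq compared WT females with Zeb1_200H females, heterozygous for a Zeb1 allele whose predicted miR-200a/b sites in the 3′ UTR are mutated, and with homozygous Zeb1_200M females. The question was how relief of Zeb1 from miR-200a/b alters pituitary miRNAs. The alleles came from targeted embryonic stem cell clones backcrossed to C57BL/6J, and which clone each mouse descended from is not given in the sources used here. The young cohort held virgin females of 8 to 12 weeks (3 WT, 4 Zeb1_200H and 4 Zeb1_200M libraries), and the old cohort held females of 28 to 36 weeks that had been through a breeding trial (4 WT, 3 Zeb1_200H and 3 Zeb1_200M libraries). Each library came from a different mouse.

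miR-143 and miR-145 are processed from a shared primary transcript and are enriched in the mural cells of vessels, the smooth muscle cells and pericytes, where they are known for promoting the contractile state. miR-126 is encoded within Egfl7, is enriched in endothelial cells and is known for sustaining VEGF signalling and vessel integrity. The anterior pituitary is supplied by portal vessels and a dense bed of fenestrated capillaries, through which hypothalamic factors arrive and pituitary hormones leave. The libraries were made from whole tissue, so the cell of origin of these miRNAs was not measured, and more cells of a type cannot be told apart from more RNA per cell.

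Depth differed greatly between the cohorts. Young libraries held 3816917 to 10806313 counted miRNA reads, and old libraries held 60037 to 191650. All 7 names were tested in the young cohort, whereas 4 of 6 were tested in the old cohort, because miR-143-5p and miR-145a-3p had between 2 and 15 counts in each old library and did not pass the filter on low counts. Levels are given as CPM of counted miRNA reads, scaled by the trimmed mean of M values (TMM CPM). The scaling was done within each cohort, so levels were not tested between cohorts.

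Some young libraries stood apart from the others. WT replicate 1 was the shallowest young library, with 3816917 counts and a TMM factor of 0.616, against 0.943 to 1.12 in the other young libraries. Its miR-200c-3p level of 47582 TMM CPM was 14.4-fold above the median of the other young libraries. Zeb1_200M replicate 3 held 222 counts of miR-143-3p, or 23.5 TMM CPM, which was 80.5-fold below the median of the other young libraries. Of 276 miRNAs with a median of at least 100 TMM CPM in the young cohort, single libraries lay over 8-fold higher in 5 values and over 8-fold lower in 3 values, and miR-143-3p in Zeb1_200M replicate 3 gave the largest departure. Zeb1_200H replicate 3 had the next lowest miR-143-3p level, 570 TMM CPM, but no value over 8-fold from the others. Results that rest on these 3 libraries are also given without them where stated, a choice made after seeing the data.

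The strands fell into an abundant set and a scarce set. In young WT libraries the mean was 4269.7 ± 1844 TMM CPM (SD, n = 3) for miR-126a-3p.1, the principal endothelial strand. It was 1483 ± 438 (SD, n = 3) for miR-143-3p and 1157 ± 111 (SD, n = 3) for miR-145a-5p. The forms miR-126a-3p.2 (1806 ± 777) and miR-126a-5p (1189 ± 345) lay within 1 SD of miR-143-3p, so the order of neighbours below miR-126a-3p.1 was not resolved by these 3 libraries. The scarce strands averaged 31.2 ± 5.78 for miR-143-5p and 23.3 ± 4.42 for miR-145a-3p in the same libraries. In old WT libraries miR-126a-3p was again highest, at 4455 ± 159 TMM CPM (SD, n = 4). Next came miR-126a-5p at 2520.4 ± 141 and miR-145a-5p at 2505 ± 222, which did not differ beyond their spread, and then miR-143-3p at 1702 ± 257. miR-145a-3p (35.04 ± 17.5) and miR-143-5p (30.9 ± 17.1) were the scarce strands of the old WT libraries and also overlapped.

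The ratio of the strands of each hairpin was calculated from raw counts in each library. The ratio of miR-143-3p to miR-143-5p was 52.4, 43.1 and 45.1 in young WT replicates 1, 2 and 4. Zeb1_200M replicates 1, 2 and 4 were similar, at 52.9, 44.5 and 50.8, but replicate 3 had 0.545, because its 407 counts of miR-143-5p were in the range of the other Zeb1_200M libraries (439 to 492 counts) once scaled (43.1 against 40.1 to 44.8 TMM CPM). The shortfall in that library was thus measured in the 3p strand and not in its partner. In Zeb1_200H the ratio was 53.3, 39.0, 16.9 and 51.1 in replicates 1 to 4, with replicate 3 again lowest. For miR-145a the 5p strand exceeded the 3p strand by 41.7- to 65.1-fold across the 11 young libraries. For miR-126a the 3p forms together exceeded the 5p strand by 11.1-fold in young WT replicate 1 and by 3.18- to 3.81-fold in the other young libraries. The single 3p name of the old cohort exceeded the 5p strand by 1.53- to 2.16-fold in the 10 old libraries. The names and dictionaries differ, so the miR-126a ratios are not comparable between cohorts.

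The near relatives that the naming rule leaves out were close to absent. miR-145b summed to 20 counts over the 11 young libraries and 2 counts over the 10 old libraries. miR-126b-3p had 5 and miR-126b-5p had 3 counts in all young libraries together. Both miR-126b strands had 0 counts in the old cohort, where 3 counts, the upper limit that 0 allows, corresponded to 15.7 to 49.97 CPM depending on the library. These limits cover counting error only.

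In the young cohort miR-145a-5p was higher in Zeb1_200M than in WT, while miR-143-3p, its cluster partner, depended on single libraries. miR-145a-5p measured 1048, 1269.9 and 1154 TMM CPM in WT replicates 1, 2 and 4. It measured 1625, 1584, 1377 and 1464 in Zeb1_200H replicates 1 to 4, and 1820.3, 1720.1, 1794 and 1532 in Zeb1_200M replicates 1 to 4. Every library of both Zeb1 genotypes lay above every WT library, and the 2 mutant genotypes overlapped each other. The log2 fold change for Zeb1_200M against WT was 0.57 ± 0.134 (SE; 4 of 4 libraries above all WT; edgeR, Benjamini-Hochberg (BH) adjusted p = 0.0468). That call was made in 4 of 14 alternative settings, with a log2 fold change above 0 in 14 of 14 and edgeR or DESeq2 BH-adjusted p from 0.00226 to 0.414. Leaving out any 1 library other than WT replicate 1 ended the call, with edgeR BH-adjusted p from 0.0683 (WT replicate 2) to 0.146 (Zeb1_200M replicate 1). For Zeb1_200H against WT the log2 fold change of 0.39 ± 0.131 did not pass (4 of 4 libraries above all WT; edgeR, BH-adjusted p = 0.154), and without WT replicate 1 it was 0.33 and passed (edgeR, BH-adjusted p = 0.0177, within a range of 0.00308 to 0.479 over 14 settings).

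miR-143-3p measured 1985, 1175 and 1289 TMM CPM in young WT replicates 1, 2 and 4. It measured 1931, 1352, 570 and 1853 in Zeb1_200H replicates 1 to 4, and 2324, 1996, 23.5 and 2036 in Zeb1_200M replicates 1 to 4. Apart from replicate 3, the Zeb1_200M libraries lay above all WT libraries. With all libraries the log2 fold change was 0.10 ± 1.00 for Zeb1_200M against WT (3 of 4 libraries above all WT; edgeR, BH-adjusted p = 0.965) and −0.05 ± 0.397 for Zeb1_200H against WT (0 of 4 libraries above all WT; edgeR, BH-adjusted p = 0.960). Without Zeb1_200M replicate 3 alone it was 0.50 and still did not pass (edgeR, BH-adjusted p = 0.328). When WT replicate 1 was left out as well, leaving 2 WT and 3 Zeb1_200M libraries, it was 0.80 and passed (edgeR, BH-adjusted p = 8.35e-05, within a range of 8.35e-05 to 0.997 over 14 settings). Since Zeb1_200M replicate 3 was left out for its miR-143-3p level, the quantity tested, that pass depends on the choice and is no independent test. For Zeb1_200H the log2 fold change lay between −0.23 and 0.22 with any 1 library left out. Without both WT replicate 1 and Zeb1_200H replicate 3 it was 0.50 and passed (edgeR, BH-adjusted p = 0.0170, within a range of 0.0170 to 0.984 over 14 settings). Zeb1_200H replicate 3 was also left out for its miR-143-3p level, so that pass is no independent test either. The miR-143-3p result of the young cohort therefore rested on which libraries were kept.

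The scarce strand miR-143-5p did not share the low value of its partner. It measured 37.9, 27.3 and 28.6 TMM CPM in young WT replicates 1, 2 and 4, 33.8 to 36.3 in the 4 Zeb1_200H libraries, and 40.1 to 44.8 in the 4 Zeb1_200M libraries. All Zeb1_200M libraries lay above all libraries of the other genotypes. The log2 fold change of 0.47 ± 0.174 for Zeb1_200M against WT did not pass (4 of 4 libraries above all WT; edgeR, BH-adjusted p = 0.157), nor did 0.28 ± 0.0828 for Zeb1_200M against Zeb1_200H (4 of 4 libraries above all Zeb1_200H; edgeR, BH-adjusted p = 0.176). Without WT replicate 1 the difference from WT was 0.64 and passed (edgeR, BH-adjusted p = 0.00192, within a range of 0.00192 to 0.555 over 14 settings). The other scarce strand, miR-145a-3p, ranged from 18.3 to 33.9 TMM CPM over the young libraries with overlapping genotypes, and its log2 fold change for Zeb1_200M against WT was 0.37 ± 0.202 (2 of 4 libraries above all WT; edgeR, BH-adjusted p = 0.308).

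In the old cohort both mural strands that could be tested were higher in Zeb1_200M than in WT. miR-143-3p measured 1726, 1360.0, 1983 and 1740.0 TMM CPM in WT replicates 1 to 4, from 148 to 298 counts. It measured 2335, 1784 and 2096 in Zeb1_200H replicates 1, 3 and 4, and 2323, 2157 and 2239 in Zeb1_200M replicates 1, 2 and 3. The Zeb1_200M libraries all lay above the WT libraries, and the Zeb1_200H libraries overlapped both. Zeb1_200M differed from WT by a log2 fold change of 0.39 ± 0.123 (3 of 3 libraries above all WT; edgeR, BH-adjusted p = 0.0169), a call kept in 12 of 13 settings and lost without Zeb1_200M replicate 1 (edgeR, BH-adjusted p = 0.0654, within a range of 0.000352 to 0.0654). For Zeb1_200H it was 0.30 ± 0.147 and did not pass (2 of 3 libraries above all WT; edgeR, BH-adjusted p = 0.188).

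miR-145a-5p in the old cohort measured 2252, 2793, 2475 and 2499 TMM CPM in WT replicates 1 to 4. It measured 2202, 2523 and 2804 in Zeb1_200H replicates 1, 3 and 4, and 3485, 3073 and 2965 in Zeb1_200M replicates 1, 2 and 3. Zeb1_200M libraries were above every library of the other genotypes, while WT and Zeb1_200H libraries overlapped. The log2 fold change was 0.33 ± 0.110 for Zeb1_200M against WT (3 of 3 libraries above all WT; edgeR, BH-adjusted p = 0.0231), 0.01 ± 0.137 for Zeb1_200H against WT (1 of 3 libraries above all WT; edgeR, BH-adjusted p = 0.974) and 0.34 ± 0.147 for Zeb1_200M against Zeb1_200H (3 of 3 libraries above all Zeb1_200H; edgeR, BH-adjusted p = 0.240). The call against WT was made in 8 of 13 settings. Settings that ended it included those without WT replicate 1 (edgeR, BH-adjusted p = 0.0893), without Zeb1_200M replicate 1 (edgeR, BH-adjusted p = 0.114), without Zeb1_200M replicate 2 (edgeR, BH-adjusted p = 0.0558) and with no filter on low counts (edgeR, BH-adjusted p = 0.0872), within a range of 0.000429 to 0.114.

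The endothelial strands of miR-126a did not pass in the young cohort. miR-126a-3p.1 measured 6369, 3531 and 2909 TMM CPM in WT replicates 1, 2 and 4, 3413 to 3741 in the 4 Zeb1_200H libraries, and 3373 to 3871 in the 4 Zeb1_200M libraries. WT replicate 1 was the highest young library and the other 2 WT libraries included the lowest, so the genotypes overlapped. The log2 fold change for Zeb1_200M against WT was −0.22 ± 0.254 (0 of 4 libraries above all WT; edgeR, BH-adjusted p = 0.639), and its sign depended on WT replicate 1 and on the scaling, since it was 0.21 without that library (edgeR, BH-adjusted p = 0.114) and 0.25 with library totals alone (edgeR, BH-adjusted p = 0.310), within a range of 0.0781 to 0.908. The form miR-126a-3p.2 gave −0.23 ± 0.254, 0.21 without WT replicate 1 and 0.24 with library totals alone. miR-126a-5p measured 818, 1501 and 1247 TMM CPM in WT replicates 1, 2 and 4 and 1353 to 1635 in the 8 libraries of the Zeb1 genotypes. Its log2 fold change was 0.31 ± 0.203 for Zeb1_200M (1 of 4 libraries above all WT; edgeR, BH-adjusted p = 0.376) and 0.35 ± 0.199 for Zeb1_200H (2 of 4 libraries above all WT; edgeR, BH-adjusted p = 0.335). Without WT replicate 1 it fell to 0.13 for Zeb1_200M (edgeR, BH-adjusted p = 0.405) and to 0.15 for Zeb1_200H (edgeR, BH-adjusted p = 0.298). WT replicate 1 thus had the highest 3p and the lowest 5p level of miR-126a among the young libraries.

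In the old cohort both strands of miR-126a were higher in Zeb1_200M than in WT. miR-126a-5p measured 2483, 2518, 2372 and 2709 TMM CPM in WT replicates 1 to 4. It measured 3409, 2507 and 2935 in Zeb1_200H replicates 1, 3 and 4, and 3357, 3451 and 3182 in Zeb1_200M replicates 1, 2 and 3. All Zeb1_200M libraries lay above all WT libraries, and 2 of 3 Zeb1_200H libraries did. Zeb1_200M differed from WT by a log2 fold change of 0.39 ± 0.105 (3 of 3 libraries above all WT; edgeR, BH-adjusted p = 0.00574), and this call was made in 13 of 13 settings. miR-126a-3p measured 4391, 4291, 4471 and 4665 TMM CPM in WT replicates 1 to 4, 5699.7, 5417 and 5486 in Zeb1_200H replicates 1, 3 and 4, and 5713, 5783 and 4859.8 in Zeb1_200M replicates 1, 2 and 3. Both Zeb1 genotypes lay entirely above WT for this strand. This gave a log2 fold change of 0.28 ± 0.0997 for Zeb1_200M (3 of 3 libraries above all WT; edgeR, BH-adjusted p = 0.0298), and 0.31 ± 0.110 for Zeb1_200H, which did not pass in edgeR (3 of 3 libraries above all WT; BH-adjusted p = 0.0719) but did in DESeq2 (BH-adjusted p = 0.0406, within a range of 0.00252 to 0.240 over 13 settings). The Zeb1_200M call was made in 8 of 13 settings. Settings that ended it for miR-126a-3p included those without WT replicate 1 (edgeR, BH-adjusted p = 0.0730), without Zeb1_200M replicate 1 (edgeR, BH-adjusted p = 0.111), without Zeb1_200M replicate 2 (edgeR, BH-adjusted p = 0.156) and with no filter on low counts (edgeR, BH-adjusted p = 0.153), within a range of 0.000187 to 0.156.

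**Figure D1:**
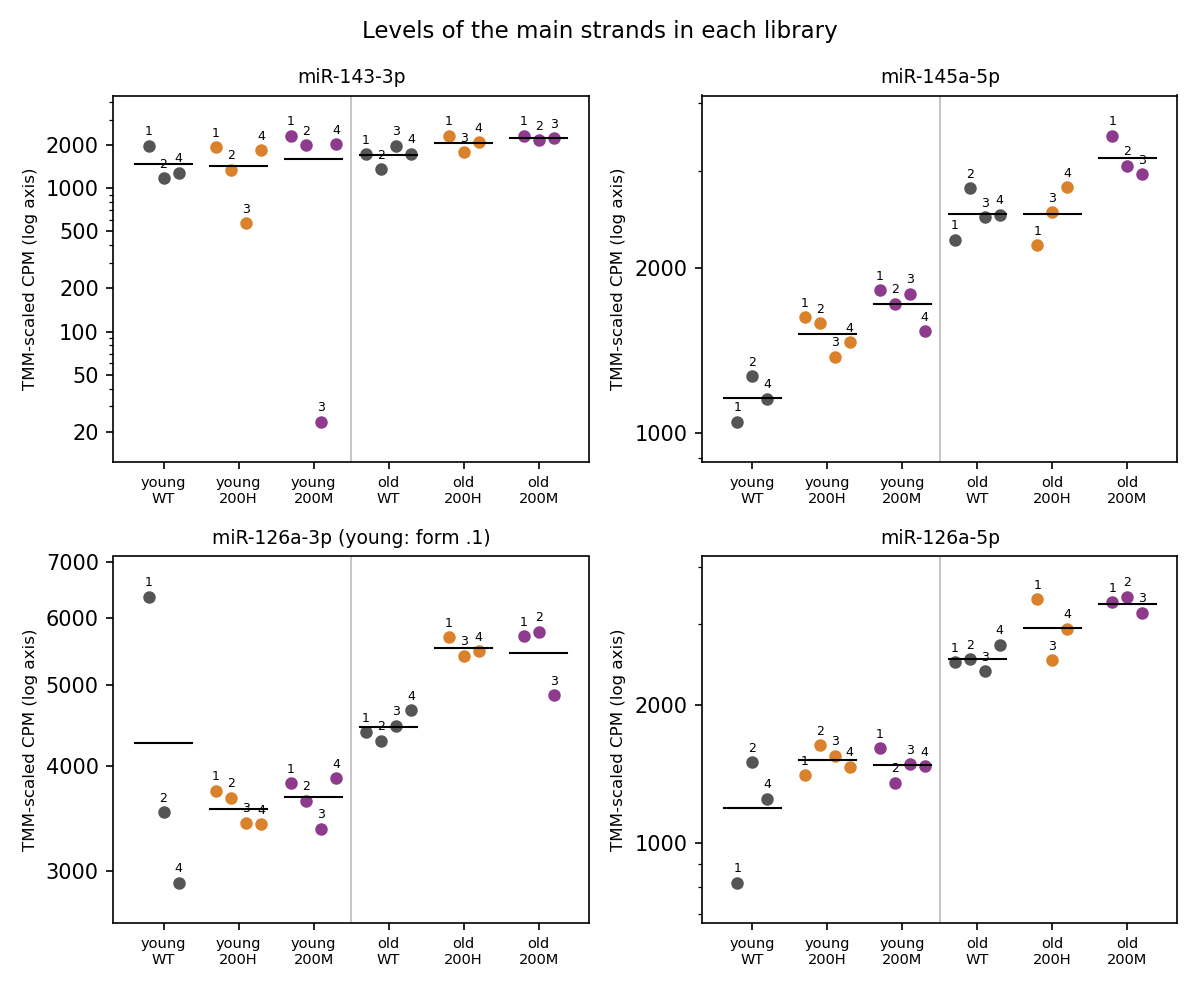
Level of miR-143-3p, miR-145a-5p, miR-126a-3p and miR-126a-5p in each library, in TMM-scaled CPM on log axes, by cohort and genotype, with points for libraries (labelled by replicate number, cohorts scaled separately) and lines for group means. miR-143-3p in young Zeb1_200M replicate 3 lies at 23.5, and the old Zeb1_200M libraries lie above all old WT libraries in each panel.

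**Figure D2:**
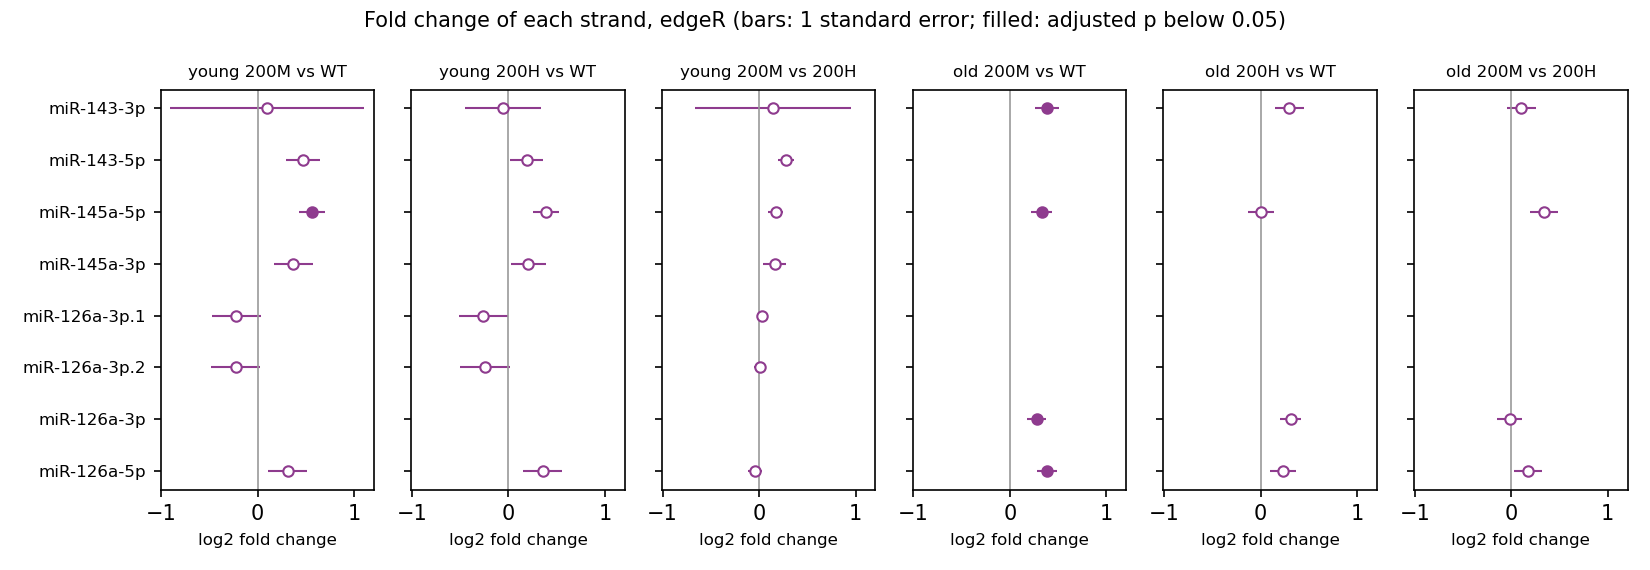
Log2 fold change of each member in each comparison of genotypes within a cohort, with bars of 1 SE and no point for a name that was not tested. Filled points, with an edgeR BH-adjusted p below 0.05, are miR-145a-5p for young Zeb1_200M against WT and 4 members for old Zeb1_200M against WT.

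The counts of members that passed were set beside those of all miRNAs tested. For young Zeb1_200M against WT, 1 of 7 members passed in edgeR at a BH-adjusted p below 0.05, beside 44 of 678 miRNAs (6.49%), and the members' median log2 fold change was 0.31 against −0.0025 over all. Without WT replicate 1 and Zeb1_200M replicate 3, 3 of 7 members passed beside 156 of 703 miRNAs, 1 of them miR-143-3p, for which replicate 3 was left out, and without WT replicate 1 alone 2 of 7 passed beside 168 of 703. Leaving out any 1 Zeb1_200M library left 0 members and 25 to 29 miRNAs. For young Zeb1_200H against WT, 0 of 7 members passed in edgeR beside 34 of 672 miRNAs (5.06%), with 1 member and 131 miRNAs at an unadjusted p below 0.05, and 0 members and 73 miRNAs by DESeq2. Without WT replicate 1, 1 of 7 members passed beside 151 of 699. For young Zeb1_200M against Zeb1_200H, 0 of 7 members passed in edgeR beside 15 of 675 miRNAs (2.22%), with 2 members and 63 miRNAs at an unadjusted p below 0.05, and 0 members and 20 miRNAs by DESeq2.

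In the old cohort, 4 of 4 tested members passed for Zeb1_200M against WT in edgeR at a BH-adjusted p below 0.05, all higher, beside 99 of 276 miRNAs (35.9%). The members' median log2 fold change was 0.36 against 0.0014 over all miRNAs tested. Between 1 and 5 members passed when 1 library was left out, with 2 without WT replicate 1 (beside 77 of 265 miRNAs), 1 without Zeb1_200M replicate 1 (beside 78 of 288) and 2 without Zeb1_200M replicate 2 (beside 76 of 281). The 5, without Zeb1_200M replicate 3 (beside 84 of 281), include miR-145a-3p, which passed the filter on low counts only then. It had 10 and 15 counts in the Zeb1_200M libraries kept, against 2 to 8 in WT. It thus passed the filter through the group where it is high, so its call is no support. For old Zeb1_200H against WT, 0 of 4 members passed in edgeR beside 32 of 267 miRNAs (12.0%), with 1 member and 73 miRNAs at an unadjusted p below 0.05, and 1 member and 28 miRNAs by DESeq2. For old Zeb1_200M against Zeb1_200H, 0 of 4 members passed in edgeR beside 3 of 274 miRNAs (1.09%), with 1 member and 40 miRNAs at an unadjusted p below 0.05, and 0 members and 3 miRNAs by DESeq2. The comparisons of a cohort share libraries and are not independent of each other.

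The levels above are relative to the bulk of miRNAs in each library. With library totals alone in place of TMM, the log2 fold change of the typical miRNA moved up by 0.336 for young Zeb1_200M against WT, by 0.282 for young Zeb1_200H, by 0.236 for old Zeb1_200M and by 0.174 for old Zeb1_200H. The split of calls for young Zeb1_200M was 18 higher and 26 lower with TMM and 39 higher and 19 lower with library totals. For young Zeb1_200H it was 11 higher and 23 lower with TMM and 21 higher and 21 lower with library totals. For old Zeb1_200M it was 56 higher and 43 lower with TMM and 84 higher and 26 lower with library totals. For old Zeb1_200H it was 13 higher and 19 lower with TMM and 54 higher and 15 lower with library totals, and 3 of 4 members then passed.

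The difference between the cohorts was tested as an interaction of genotype and cohort over the names they share, with 5 members tested. Among them, miR-143-5p and miR-145a-3p had 2 to 15 counts in each old library and passed the filter through their young counts (59 to 492). Their SE was 0.53 and 0.60 for Zeb1_200M, so the lack of a call for these strands decides nothing. For Zeb1_200M, 0 of 5 members and 0 of 485 miRNAs (0%) differed in edgeR, with 0 members and 27 miRNAs at an unadjusted p below 0.05. For Zeb1_200H, 0 of 5 members and 0 of 489 miRNAs (0%) differed in edgeR, with 0 members and 23 miRNAs at an unadjusted p below 0.05. No other tool was run for the interaction. The young minus old difference in log2 fold change of miR-145a-5p was 0.32 ± 0.173 for Zeb1_200M (edgeR, BH-adjusted p = 0.825) and 0.38 ± 0.191 for Zeb1_200H (edgeR, BH-adjusted p = 0.645). For miR-143-3p it was −0.20 ± 1.05 for Zeb1_200M (edgeR, BH-adjusted p = 1.00), and 0.45 without young WT replicate 1 and Zeb1_200M replicate 3 (edgeR, BH-adjusted p = 0.344, within a range of 0.344 to 1.00 over 17 settings). For the members tested, a call in one cohort and not in the other is therefore not shown to be a difference between them. For miR-126a-3p, named differently in each cohort, the difference was not tested. The cohorts differed in age, mating, RNA input, sequencer and miRNA dictionary, which cannot be told apart.

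The balance of mural to endothelial miRNAs was described as the raw counts of miR-143-3p plus miR-145a-5p over those of miR-126a-3p (both forms summed in the young cohort), without a test. In the young cohort it was 0.335, 0.486 and 0.590 in WT replicates 1, 2 and 4. It was 0.671, 0.557, 0.396 and 0.681 in Zeb1_200H replicates 1 to 4, and 0.755, 0.720, 0.377 and 0.656 in Zeb1_200M replicates 1 to 4. Apart from replicate 3, the Zeb1_200M libraries lay above all WT libraries. With miR-145a-5p alone over miR-126a-3p, a ratio chosen after seeing the data, all Zeb1_200M (0.282 to 0.372) and all Zeb1_200H libraries (0.280 to 0.307) lay above the WT libraries (0.116, 0.253 and 0.279 in replicates 1, 2 and 4). The same ratio in the old cohort did not repeat this, since Zeb1_200H libraries (0.386, 0.466 and 0.511) lay below all WT libraries (0.513 to 0.651) and Zeb1_200M libraries (0.531 to 0.610) overlapped WT. In the old cohort the balance was 0.906, 0.968, 0.997 and 0.909 in WT replicates 1 to 4. It was 0.796, 0.795 and 0.893 in Zeb1_200H replicates 1, 3 and 4, and 1.02, 0.904 and 1.07 in Zeb1_200M replicates 1, 2 and 3. The old Zeb1_200H libraries lay below all WT libraries, whereas Zeb1_200M libraries overlapped WT and lay above all Zeb1_200H libraries.

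**Figure D3:**
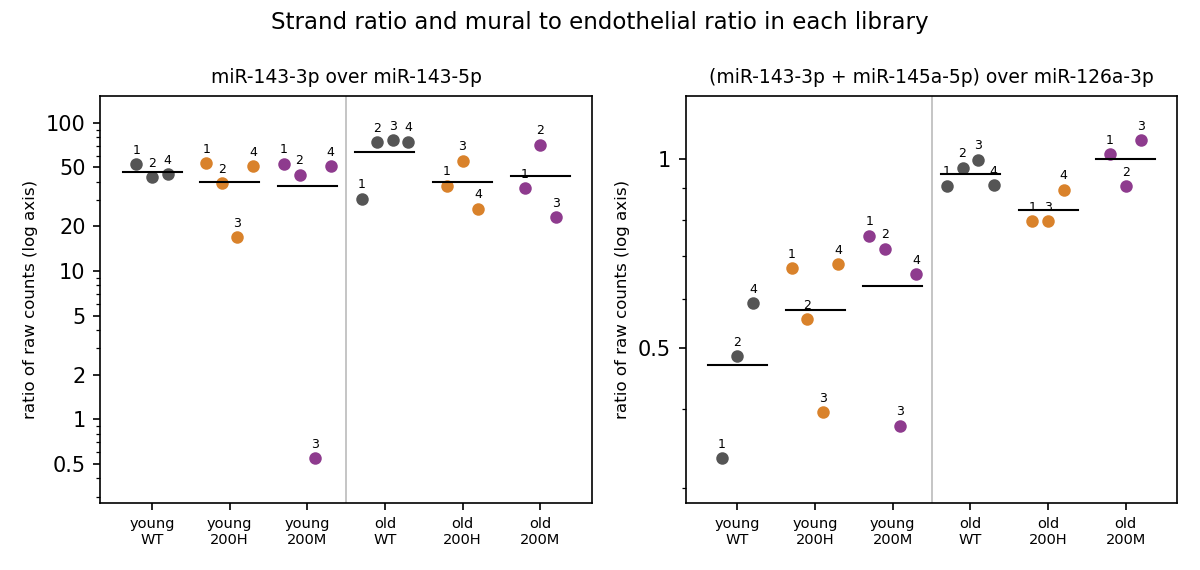
Ratio of raw counts of miR-143-3p to miR-143-5p, and of miR-143-3p plus miR-145a-5p to miR-126a-3p, in each library on log axes, with points for libraries (labelled by replicate number) and lines for group means. Young Zeb1_200M replicate 3 lies at 0.545 in the first panel, and old Zeb1_200H libraries lie below all old WT libraries in the second.

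Markers of other cell types were examined beside these results. In old Zeb1_200M against WT, 2 of 3 tested miRNAs of another endothelial-enriched list passed, both higher, namely miR-139-5p (log2 fold change 0.50) and miR-222-3p (0.55, the most abundant of the list). Its summed level was 1182 ± 85.9 TMM CPM (SD, n = 4) in WT, 1289 ± 132 (SD, n = 3) in Zeb1_200H and 1677 ± 305 (SD, n = 3) in Zeb1_200M. The red blood cell list had 1 of 2 tested miRNAs higher, miR-144-3p (0.57), and its most abundant miRNA, miR-451a, did not pass (0.14, edgeR, BH-adjusted p = 0.404). The list summed to 7049 ± 1153 TMM CPM in WT, 7334 ± 956 in Zeb1_200H and 8074 ± 1709 in Zeb1_200M. The leukocyte list had 1 of 2 tested miRNAs higher, miR-223-3p (1.06), but 2 of its 5 names, the strands of miR-142a, had no entry in the old tables, which carry miR-142-3p and miR-142-5p instead. miR-142-3p was more abundant than any listed leukocyte miRNA and was higher in Zeb1_200M (log2 fold change 0.94 ± 0.193, 3 of 3 libraries above all WT; edgeR, BH-adjusted p = 0.000540). miR-142-5p did not pass (0.47 ± 0.314, edgeR, BH-adjusted p = 0.270). Counted with these names, a choice made after seeing the data, the list summed to 866 ± 181 TMM CPM in WT, 1063 ± 99.6 in Zeb1_200H and 1549 ± 196 in Zeb1_200M, against 289 ± 44.0, 375 ± 46.7 and 463 ± 118 without them. The stromal, muscle and red blood cell lists also lacked 2 names each in the old tables. In the stromal fibroblast list 0 of 2 tested miRNAs passed, with miR-199a-5p the most abundant and sums of 320.1 ± 61.6, 334 ± 74.0 and 356 ± 13.7 TMM CPM in the same order. No muscle miRNA was tested in the old cohort, where the list summed to 17.4 ± 16.6, 18.0 ± 10.1 and 3.55 ± 6.15 TMM CPM, its most abundant being miR-1a-3p. Over all miRNAs, 99 of 276 (35.9%) passed in this comparison, 56 of them higher. With so few tested in each list, the passes among vessel, blood and leukocyte markers cannot be set apart from that share. Their part in the member results was not tested.

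Neuronal and endocrine lists moved in both cohorts. In old Zeb1_200M against WT, 3 of 5 tested neuron miRNAs were higher, miR-124-3p (2.48, the most abundant), miR-9-5p (0.89) and miR-137-3p (0.44), and the list summed to 6476 ± 622, 10273 ± 1110 and 14534 ± 237 TMM CPM in WT, Zeb1_200H and Zeb1_200M. Of the 8 endocrine pituitary miRNAs, 7 were lower, including the miR-200 family. The sum of the list was 394329 ± 20056 in WT, 276936 ± 16296 in Zeb1_200H and 243085 ± 9336 in Zeb1_200M, with miR-7a-5p the most abundant. The paper cites earlier reports of the miR-200 loci as direct targets of ZEB1. The miR-200 names and the sum therefore do not measure endocrine cells apart from the allele. Outside that family, miR-375-3p (−0.62) and miR-7a-5p (−0.45) passed. In old Zeb1_200H against WT, 1 neuron miRNA was higher, 6 endocrine miRNAs were lower and 0 miRNAs of the other lists passed in edgeR. In young Zeb1_200M against WT, 3 of 8 neuron miRNAs, all strands of miR-124, were higher and 5 of 8 endocrine miRNAs, all of the miR-200 family, were lower. The most abundant endocrine miRNA, miR-7a-5p, did not pass there (−0.79, edgeR, BH-adjusted p = 0.182). The young endocrine sum was 711044 TMM CPM in WT replicate 1 against 344820 and 335080 in replicates 2 and 4, and 217935 to 281477 in the 8 libraries of the Zeb1 genotypes. The endothelial-enriched, stromal, muscle, red blood cell and leukocyte lists had 0 miRNAs past the edgeR threshold for young Zeb1_200M against WT. Their sums for WT, Zeb1_200H and Zeb1_200M were 760 ± 35.8, 875 ± 27.4 and 965 ± 98.6 TMM CPM for the endothelial-enriched list and 531 ± 98.0, 688 ± 82.8 and 746 ± 78.0 for the stromal list. The muscle list summed to 14.7 ± 5.67, 32.6 ± 15.9 and 50.9 ± 31.0 in the same order, and 4 of 4 of its miRNAs had a log2 fold change above 0 for Zeb1_200M against WT, with a median of 1.84. Zeb1_200M replicate 3, at 15.5 TMM CPM against 42.0 to 90.0 in the other 3 libraries, and Zeb1_200H replicate 3, at 17.5 against 26.1 to 54.6, had the lowest muscle sums of their genotypes, as they had for miR-143-3p. In WT the lowest muscle sum was in replicate 4 (8.36), but the lowest miR-143-3p level was in replicate 2 (1175). The mural strands miR-145a-5p (1794) and miR-143-5p (43.1) of Zeb1_200M replicate 3 lay within the range of its genotype. For the red blood cell list the sums were 8929.7 ± 927, 11407 ± 4067 and 9274 ± 953, and for the leukocyte list 1268 ± 73.6, 1419.9 ± 237 and 1372 ± 180.3. Markers of muscle thus had the largest relative difference among these 5 lists, at low levels and without a call. The part of these lists in the member results was not tested. No listed miRNA with a name in the tables was at 0 in all libraries of a cohort.

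In the genome the mural pair lies together and miR-126a lies apart. In GRCm38 with the GENCODE vM21 annotation, Mir143 spans chr18:61649196-61649258 and Mir145a spans chr18:61647825-61647894, both on the minus strand and 1301 bases apart. The lincRNA gene Carmn (chr18:61649625-61665537, minus strand) ends 366 bases from Mir143. Mir126a spans chr2:26591357-26591429 on the plus strand inside the protein-coding gene Egfl7 (chr2:26580014-26593120, plus strand), of whose 19 annotated transcripts 9 span the hairpin, 8 of them with the hairpin in an intron and 1 with an overlapping exon. Mir126b (chr2:26591363-26591420) lies antisense to it on the minus strand. The mature strands of a hairpin share a primary transcript and are not independent measurements.

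The principal mural strands of the cluster, miR-143-3p and miR-145a-5p, were not close to each other in level across all libraries of a cohort. Over the 11 young libraries the Pearson correlation of log2 TMM CPM between miR-143-3p and miR-145a-5p was −0.26 (Spearman rho = 0.27), which ranked miR-145a-5p 440 among the 500 other miRNAs by Pearson r. Over the 10 old libraries it was 0.27, rank 61 of 160. Over the 8 young libraries without WT replicate 1, Zeb1_200H replicate 3 and Zeb1_200M replicate 3 it was 0.80, rank 44 of 500, but the replicates 3 were left out for their miR-143-3p level, so this value depends on that choice. In contrast, the old correlation of miR-143-3p with the endothelial strand miR-126a-5p was 0.76, and that with miR-126a-3p was 0.73. The scarce strands were closer to miR-145a-5p over the 11 young libraries. Pearson r with it was 0.67 for miR-143-5p (0.92 without WT replicate 1) and 0.72 for miR-145a-3p (0.83 without WT replicate 1). These correlations span the genotypes and are descriptions of shared libraries.

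The miRNAs whose levels were most like those of each principal strand were then identified among 500 other miRNAs in the young cohort and 160 in the old, leaving aside those averaging under 50 counts per library. For miR-143-3p over 11 young libraries the nearest was miR-24-2-5p (Pearson r = 0.97, Spearman rho = 0.89), followed by miR-674-5p (0.77), miR-92b-5p (0.64), miR-425-3p (0.62) and miR-383-3p (0.61). miR-24-2-5p also had its lowest young level in Zeb1_200M replicate 3, 145 TMM CPM against 274 to 311 in the other Zeb1_200M libraries, and its next lowest in Zeb1_200H replicate 3, 206 TMM CPM. miR-674-5p measured 85.3 TMM CPM in Zeb1_200M replicate 3 against 122 to 162 in the others of that genotype. This likeness rested on those libraries, since without the 3 libraries the nearest to miR-143-3p was miR-744-3p and its own partner strand miR-143-5p ranked 5 (r = 0.91, n = 8). Without the 3 libraries 0 of the 5 nearest to miR-143-3p were kept. For miR-145a-5p the nearest over 11 young libraries were miR-455-3p.1 (0.97), miR-34c-5p (0.95), miR-124-3p.1 (0.94), miR-132-5p (0.94) and miR-34b-3p (0.94), of which only miR-455-3p.1 was among the nearest 5 without the 3 libraries, after miR-338-3p, miR-544-3p and miR-34c-3p. For miR-126a-3p.1 they were its other form miR-126a-3p.2 (0.99), miR-539-5p (0.97), miR-676-3p (0.96), let-7e-5p (0.95) and miR-666-5p (0.95). These also rested on WT replicate 1, without which the last 4 had r of 0.64 to 0.85. Without the 3 libraries the nearest to miR-126a-3p.1 were miR-452-5p, miR-126a-3p.2, miR-505-3p.1, miR-381-3p and miR-491-5p (r = 0.93 to 0.98, n = 8). Over 10 old libraries miR-30a-3p was nearest to both miR-143-3p (0.91) and miR-126a-3p (0.90). For miR-143-3p it was followed by miR-300-3p (0.89), miR-124-3p (0.87), miR-126a-5p (0.76) and miR-140-5p (0.76), and for miR-126a-3p by miR-140-5p (0.89), miR-381-3p (0.86), miR-300-3p (0.86) and miR-330-5p (0.85). For old miR-145a-5p the nearest were miR-384-3p (0.78), miR-879-5p (0.67), miR-361-5p (0.65), miR-139-5p (0.63) and miR-142-3p (0.63).

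The mature sequences of the endothelial strand miR-126a-3p and of 4 of the miRNAs nearest to miR-143-3p in either cohort are given with the seed, bases 2 to 8, in capitals. The 5 seeds printed differ from each other, and the seeds of the mural strands were not compared. The sequences are from RefSeq (GRCm38.p6), where 1 of 6 member names sought matched, and the seed of miR-126a-3p was carried by 1 of 1679 mature names, its own.
miR-126a-3p (chr2:26591402-26591423, plus strand, within Egfl7): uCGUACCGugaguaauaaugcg
miR-24-2-5p (chr8:84208839-84208860, plus strand): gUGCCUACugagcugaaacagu
miR-674-5p (chr2:117185151-117185172, plus strand): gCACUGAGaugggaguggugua
miR-30a-3p (chr1:23272315-23272336, plus strand): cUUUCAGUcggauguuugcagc
miR-300-3p (chr12:109724363-109724384, plus strand): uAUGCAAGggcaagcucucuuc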

How the data were processed

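Small-RNA-seq counts from 21 pituitary libraries were used. Before deposit, the authors removed adapter sequence (cutadapt) and low-quality reads. They matched the first bases of each read to miRNA dictionaries (TargetScanMouse, without mismatch, for the young cohort, and miRBase for the old). Spike-in reads were then removed and raw read counts per miRNA deposited. The dictionaries and read lengths matched differ between cohorts, so names are not fully comparable. RNA input was 0.5 µg for the old cohort and, for the young, 3 µg by the labels but 2 µg by the published methods. The 6 tables hold each library in 2 identical copies, counted once, and 42 normalized columns were not used. Total counts were 3816917 to 10806313 per young library and 60037 to 191650 per old library.

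Genotypes were compared in pairs within a cohort with the edgeR 4.0.16 quasi-likelihood F test in R 4.3.3 (TMM, minimum count 10, minimum total 15), with Benjamini-Hochberg adjustment over all miRNAs tested and a threshold of 0.05. SE was the log2 fold change over the root of F. An interaction fit over 1816 shared names tested the cohort difference. Alternatives were DESeq2 1.42.0, other scalings, no filter, a robust fit, the replicate number as a block, and libraries left out. The fitting code was tested on simulated data. Named were all members, their relatives, the 5 miRNAs nearest by Pearson r (prior count 0.5), and from each marker list the most abundant miRNA and those that passed. Members and lists were chosen with earlier results of these data known. A library was called far from its cohort at over 8-fold. Sequences of the mural strands are not reported here.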

Additional observations from a re-analysis of the deposited data

Results flagged for a closer look

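Dixon's test of the most extreme library was applied to 41 groups of 4 libraries, over levels and ratios of the members, and 4 passed its critical value. Chance gives about 1 in 20 such groups. Young Zeb1_200M replicate 3 gave 3 of them, which share the same 222 counts of miR-143-3p. Its miR-143-3p level was 23.5 TMM CPM, its ratio of miR-143-3p to miR-143-5p was 0.545 and its ratio of miR-143-3p to miR-145a-5p was 0.0131. In the other Zeb1_200M libraries those values were at least 1996, 44.5 and 1.16. The last was old WT replicate 1, whose ratio of miR-143-3p to miR-143-5p was 30.75 against 74.0 to 76.5 in the other old WT libraries, and these rest on 8 counts of miR-143-5p in replicate 1 and 2 to 4 counts in the others. The other genotypes of the old cohort had 23.0 to 71.25, a range that includes 30.75.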

How the results depend on the processing

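Counts of members called at an edgeR Benjamini-Hochberg (BH) adjusted p below 0.05 changed with the setting. For young Zeb1_200M against WT, 1 of 7 members was called beside 44 of 678 miRNAs, 0 with RLE size factors (beside 39 of 678), 0 with no filter on low counts (beside 46 of 1318), 0 with a robust fit (beside 36 of 678) and 2 with library totals alone (beside 58 of 678). Leaving out 1 library gave 0 to 2 members and 25 to 168 of all miRNAs, the highest without WT replicate 1. Without WT replicate 1 and Zeb1_200M replicate 3, chosen after seeing the data, it was 3 members and 156 miRNAs. DESeq2 called 93 miRNAs, 1 of them a member.

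For young Zeb1_200H against WT, 0 of 7 members and 34 of 672 miRNAs were called in edgeR, with 1 member and 131 miRNAs at an unadjusted p below 0.05. Leaving out 1 library gave 0 to 1 members and 21 to 151 miRNAs, and leaving out WT replicate 1 and Zeb1_200H replicate 3, chosen after seeing the data, gave 3 members and 163 miRNAs. Replicate 3 of each Zeb1 genotype was left out for its miR-143-3p level, so a call of miR-143-3p there is no independent test. DESeq2 called 73 miRNAs and 0 members.

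In the old cohort, 4 of 4 members were called for Zeb1_200M against WT beside 99 of 276 miRNAs, 2 with no filter on low counts (beside 94 of 709) and 1 to 5 with 1 library left out (beside 76 to 98 miRNAs), where 5 includes a strand that passed the filter only then. That strand, miR-145a-3p, passed it through the Zeb1_200M libraries where it is high, so its call is no support. For old Zeb1_200H against WT, library totals alone called 3 members and 69 miRNAs (0 and 32 with TMM), and DESeq2 called 1 member and 28 miRNAs. For old Zeb1_200M against Zeb1_200H, 3 to 5 miRNAs were called with 1 library left out.

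Replicate numbers were treated as shared numbers only. For old Zeb1_200H against WT, correlations of libraries with the same number were 0.0685 to 0.175 at a prior count of 0.5, with 2 of 6 libraries most like the one of their own number, and 0.100 to 0.190 at a prior count of 2, with 3 of 6. The lowest thus lay on either side of 0.1, the limit used, depending on the prior count. With the replicate number as a block, 0 members and 20 miRNAs were called for young Zeb1_200M against WT, 18 miRNAs for young Zeb1_200H against WT, 47 miRNAs for old Zeb1_200H against WT (32 without it), 2 members and 87 miRNAs for old Zeb1_200M against WT (edgeR, BH-adjusted p = 0.0857 for miR-145a-5p and 0.0705 for miR-126a-3p, which were called without it) and 5 miRNAs for old Zeb1_200M against Zeb1_200H. The block changed the sign of miR-143-3p to 0.23 for young Zeb1_200H against WT and to −0.55 for young Zeb1_200M against Zeb1_200H.

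Log2 fold changes that crossed 0 were these. For young Zeb1_200M against WT, miR-126a-3p.1 (−0.22) was 0.25 with library totals, −0.41 to 0.21 with 1 library left out and 0.25 without the 2 libraries named above. miR-126a-3p.2 (−0.23) was 0.24, −0.42 to 0.21 and 0.24 in the same settings, and miR-143-3p (0.10) was −0.13 to 0.50 with 1 library left out.

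For young Zeb1_200H against WT, miR-126a-3p.1 (−0.26) was 0.16 with library totals, −0.47 to 0.15 with 1 library left out and 0.19 without 2 libraries. miR-126a-3p.2 (−0.24) was 0.18, −0.45 to 0.17 and 0.20 in the same settings. miR-143-3p (−0.05) was 0.33 with library totals, 0.016 with no filter, −0.23 to 0.22 with 1 library left out and 0.50 without 2 libraries. All of these lay within about 1 SE of 0 with all libraries.

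For young Zeb1_200M against Zeb1_200H, miR-126a-5p (−0.04) was 0.0099 with library totals and −0.077 to 0.0071 with 1 library left out, miR-126a-3p.2 (0.01) was −0.017 to 0.053, and miR-143-3p (0.14) was −0.11 to 0.57. For old Zeb1_200H against WT, miR-145a-5p (0.01) was −0.0049 with no filter and −0.087 to 0.11 with 1 library left out. For old Zeb1_200M against Zeb1_200H, miR-126a-3p (−0.02) was 0.025 with library totals and −0.050 to 0.055 with 1 library left out.

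In the cohort difference for Zeb1_200M, miR-126a-5p (0.01) was −0.055 with RLE, −0.27 to 0.13 with 1 library left out and −0.22 without 2 young libraries, and miR-143-3p (−0.20) was −0.58 to 0.076 and 0.45. In that for Zeb1_200H, miR-126a-5p (0.12) was −0.075 to 0.31 and −0.029, and miR-143-3p (−0.35) was 0.24 without 2 young libraries.

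Of the 15 nearest miRNAs in the young cohort, 8 were kept without young WT replicate 1, 2 without the 3 young libraries and 8 with Spearman's rho. Of the 15 in the old cohort, 10 were kept with Spearman's rho.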
